A study of Mus musculus with 6 samples.

Results

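The mitochondrial genome of the mouse carries a small set of genes of its own, and these are described here in 6 tumors of 4T1, a mouse mammary carcinoma line that models triple-negative breast cancer (TNBC in the labels). Members were all genes of the deposited count table that the GENCODE M21 annotation places on the mitochondrial chromosome (chromosome M). They numbered 23 of the 23508 genes in the table, made up of 13 messenger RNA (mRNA) genes, 2 ribosomal RNA (rRNA) genes and 8 transfer RNA (tRNA) genes. The annotation lists 37 such genes, and the other 14, all tRNA genes, were not analysed here. Of the tumors, 3 carry the label before peak and 3 the label with peak, which the study collected on the day when neural activity first peaked. All 6 are 4T1 tumors with no other treatment or genotype in the labels, which give no host strain, tumor age or day. Total counts ran from 10591067 to 14549357 per library. Levels are given as CPM, counts scaled to a common library total, with library sizes corrected for composition by TMM. All 14 carcinoma epithelial markers were detected in every tumor, with a summed 3876 to 5065 CPM before the peak and 3221 to 4697 CPM with it. Of these markers 12 had negative and 2 positive log2 fold changes of with-peak over before-peak tumors (median -0.23). At an unadjusted p under 0.05 by edgeR 3 were lower and 0 higher, beside 3.38% lower and 6.12% higher of all genes tested. After adjustment edgeR called 0, and DESeq2 called 1 as lower, where it called 0.146% of all genes as lower.

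Mitochondrial DNA is a circle transcribed from both strands into long RNAs that span many genes. The tRNAs lie between most of the other genes, and cutting them out frees the messengers and rRNAs. Most mitochondrial messengers and the rRNAs then receive short tails of adenines, while tRNAs receive a CCA end. The messengers encode core subunits of the respiratory chain and the ATP synthase, and the rRNAs form the ribosome that translates them inside the organelle. The libraries were selected with oligo(dT), so counts of these RNAs depend on their adenine tails or internal adenine runs as well as on their amount. They were made without strand marking, so RNA from opposite strands of the same stretch cannot be told apart. In bulk tissue, fewer cells of a type and less RNA per cell cannot be told apart either.

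The rRNA genes had more counts in every with-peak tumor than in any before-peak tumor on the CPM scale, while values of the messengers lay on both sides of 0. By the edgeR quasi-likelihood test with Benjamini-Hochberg adjustment, 0 of the 20 members that passed the filter on low counts were called, beside 0% of the 16755 genes tested. At an unadjusted p under 0.05 there were 3, both rRNA genes (higher) and mt-Cytb (lower), where 9.5% of all genes tested reached that level. DESeq2 called 2, the rRNA genes, where it called 1.62% of all genes, 1.48% as higher, and limma-voom called 0. In all 20, 12 log2 fold changes were positive and 8 negative.

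**Figure D1:**
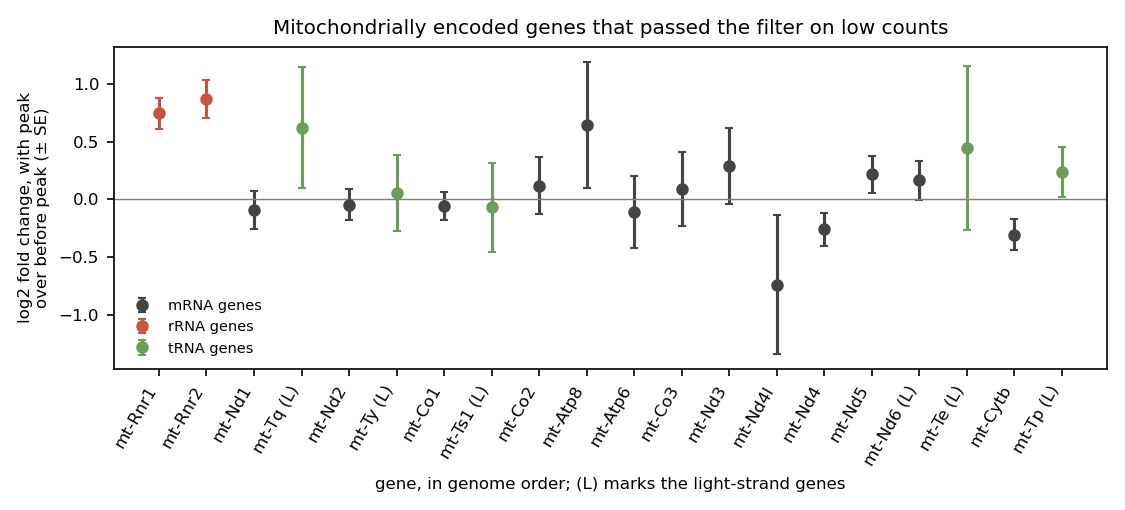
Log2 fold change of with-peak over before-peak tumors (y axis, bars are the standard error) for the 20 mitochondrially encoded genes that passed the filter, in genome order (x axis), coloured by RNA class. The rRNA genes stand at 0.75 and 0.87, while the messengers lie on both sides of 0, with wide bars for mt-Atp8 and mt-Nd4l.

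mt-Rnr1 (ENSMUSG00000064337, chromosome M, 70 to 1024, GRCm38) encodes the 12S rRNA of the small ribosomal subunit. Its level was 148, 150.2 and 194 CPM in the before-peak tumors, in the order of replicates 1, 2 and 3, and 293, 275 and 256 CPM in the with-peak tumors in that order, which all lists below keep. The lowest with-peak tumor thus lay above the highest before-peak tumor. The group means were 164 ± 25.8 and 275 ± 18.5 CPM (SD, n = 3), a log2 fold change of 0.75 with an SE of 0.13 (adjusted p = 0.117 by edgeR and 4.56e-04 by DESeq2).

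mt-Rnr2 (ENSMUSG00000064339, 1094 to 2675) encodes the 16S rRNA of the large subunit. It stood at 179, 160.4 and 248 CPM before the peak and at 334, 392 and 347 CPM with it, again without overlap. The means were 196 ± 46.3 and 358 ± 30.5 CPM (a log2 fold change of 0.87 with an SE of 0.17, adjusted p = 0.142 by edgeR and 5.48e-04 by DESeq2). Before-peak replicate 3 held the highest before-peak value of both rRNAs. Without it the log2 fold changes were 0.88 and 1.07, and mt-Rnr2 passed the edgeR test (adjusted p = 0.0436), in a fit that called 13 of 17287 genes. Leaving out any other single library gave edgeR adjusted p from 0.190 to 0.428 for mt-Rnr2. Groups that do not overlap with higher values in with-peak tumors were found for 8.13% of all genes tested.

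Since oligo(dT) can also bind adenines inside an RNA, the longest run of adenines (capitals) in each rRNA is shown with the bases on either side. Each line reads 5′ to 3′ from the GENCODE M21 transcript (GRCm38, plus strand), from base 606 to 670 of mt-Rnr1 and from base 365 to 431 of mt-Rnr2.
mt-Rnr1: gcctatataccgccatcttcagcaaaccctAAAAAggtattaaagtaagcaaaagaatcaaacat
mt-Rnr2: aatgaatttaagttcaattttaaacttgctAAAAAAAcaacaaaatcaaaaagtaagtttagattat
The longest run is 5 adenines in mt-Rnr1 and 7 in mt-Rnr2, which are 37.8% and 38.2% adenine. Among messengers the longest runs go from 3 adenines in mt-Nd6 to 8 in mt-Nd2, so by longest run the rRNAs lie within their range. Runs of 6 or more adenines numbered 0 in mt-Rnr1 and 4 in mt-Rnr2, and at most 3 in a messenger (mt-Nd2). The adenine content of messengers went from 22.2% in mt-Nd6 to 40.7% in mt-Atp8, the only messenger above the rRNAs. Whether internal runs took part in the capture was not tested.

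Within each library, rRNA counts were set against messenger counts, a ratio that no scaling of libraries can change. There were 2.33, 2.04 and 3.00 rRNA counts per 100 messenger counts in the before-peak tumors and 4.23, 4.50 and 5.26 in the with-peak tumors. Every with-peak ratio exceeded every before-peak ratio. The log2 ratio went from -5.36 ± 0.28 to -4.43 ± 0.16 (SD, n = 3), a difference of 0.94 (two-sided exact permutation p = 0.1, the smallest that 3 against 3 tumors can give). It was 1 of 6 tests of classes, over which the Benjamini-Hochberg adjusted p is 0.3. Between the rRNAs, mt-Rnr2 counts per mt-Rnr1 count were 1.19 ± 0.109 and 1.31 ± 0.148 (SD, n = 3), with overlapping groups.

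As a share of all counts, the rRNA genes took 0.0332%, 0.0313% and 0.0456% before the peak and 0.0614%, 0.0655% and 0.0587% with it. The 95% Wilson intervals of the nearest tumors, 0.0443% to 0.0468% in before-peak replicate 3 and 0.0572% to 0.0601% in with-peak replicate 3, cover counting error only and do not meet. The difference was 0.0252 percentage points (two-sided exact permutation p = 0.1, adjusted 0.3).

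The messengers took 1.42%, 1.53% and 1.52% of counts before the peak and 1.45%, 1.46% and 1.12% with it, so with-peak replicate 3 was the lowest library and the groups overlapped. The difference was -0.149 percentage points (exact permutation p = 0.3, adjusted 0.36), and -0.0361 without with-peak replicate 3. The tRNA genes took 0.00333%, 0.00316% and 0.00405% before the peak and 0.00381%, 0.00485% and 0.00330% with it (exact permutation p = 0.6, adjusted 0.6). Their difference was 4.80e-04 percentage points, and 5.01e-05 without with-peak replicate 2.

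**Figure D2:**
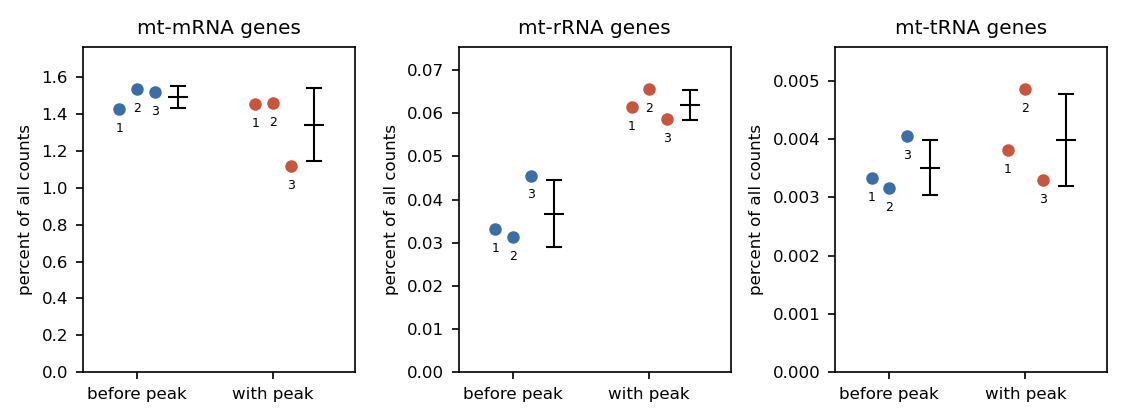
Percent of all counts (y axes, from 0) in messenger, rRNA and tRNA genes for each tumor, numbered by replicate, with the mean and SD (n = 3) beside each group. The 3 with-peak tumors lie above the before-peak tumors for rRNA genes, from 0.0587% to 0.0655%, while the groups overlap for the other classes.

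Of the 13 messengers, 6 had a positive and 7 a negative log2 fold change, with a median of -0.04 beside -0.02 over all genes tested. Without with-peak replicate 3 the split was 9 positive and 4 negative, with a median of 0.08. Without with-peak replicate 2 it was 4 and 9, with a median of -0.12. The messengers are given below by the complex they serve.

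Complex I, the NADH dehydrogenase, takes 7 of them. mt-Nd1 (2751 to 3707), a subunit of its membrane arm, stood at 1870.1, 2192 and 1958 CPM before the peak and at 1955, 2275 and 1417 CPM at the peak (log2 fold change -0.09, SE 0.17). mt-Nd2 (3914 to 4951), a neighbour in that arm, was at 1070.3, 1149.8 and 969 CPM and at 1083, 1157 and 852 CPM (-0.04, SE 0.14). In both, with-peak replicate 3 was the lowest of the 6 tumors and the other 2 with-peak tumors lay within or above the before-peak range.

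mt-Nd4 (10167 to 11544), a proton-pumping subunit, was at 948, 1077 and 1045 CPM before the peak and at 892, 978 and 693 CPM with it (-0.26, SE of 0.14, adjusted p = 0.608 by edgeR). mt-Nd5 (11742 to 13565), the largest subunit of the arm, went the other way in value, at 1093, 776 and 1079.9 CPM and at 1239, 1238 and 950.3 CPM (0.22, SE of 0.16, adjusted p = 0.719 by edgeR). Neither gene separated the groups on this scale. The mt-Nd5 value rests largely on before-peak replicate 2, without which the log2 fold change is 0.07. The mt-Nd4 value was -0.13 without with-peak replicate 3. mt-Nd3 and mt-Nd4l, the smallest subunits, had only 34 to 71 and 6 to 40 counts per library and are taken up below with the nuclear copies.

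mt-Cytb (ENSMUSG00000064370, 14145 to 15288), the cytochrome b of complex III, was the messenger with the smallest p-value. Its level was 2787, 3127 and 2946 CPM before the peak and 2450.4, 2743 and 1976 CPM with it. Every with-peak tumor lay below every before-peak tumor, as for 7.38% of all genes tested, although with-peak replicate 2 was close to before-peak replicate 1. The means were 2953 ± 169.8 and 2390 ± 387 CPM (log2 fold change -0.31, SE of 0.13, unadjusted p = 0.0457, adjusted p = 0.519 by edgeR). At an unadjusted p under 0.05, 3.38% of genes tested were lower. Without with-peak replicate 3 the log2 fold change was -0.18.

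mt-Co1 (5328 to 6872), the catalytic subunit of complex IV (cytochrome c oxidase), was the most abundant member, at 5761, 6478 and 6281 CPM before the peak and 6723, 5883 and 5168 CPM with it (-0.06, SE 0.12). Its highest and its lowest value were both from with-peak tumors. mt-Co2 and mt-Co3 of the same complex, with log2 fold changes of 0.12 (SE 0.24) and 0.09 (SE 0.32), and mt-Atp6 and mt-Atp8 of the ATP synthase, with -0.11 (SE 0.31) and 0.65 (SE 0.55), had low counts and overlapping groups.

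The makeup of the messenger counts is independent of library scaling and was compared as a description, chosen after the values were seen. mt-Cytb took 20.2% ± 0.357 (SD, n = 3; range 19.9% to 20.6%) of the counts of the 13 messengers before the peak and 16.5%, 18.5% and 17.2% with it. mt-Nd4 took 6.76%, 7.09% and 7.11% and then 6.01%, 6.60% and 6.05%. For both genes all with-peak shares were below all before-peak shares. mt-Nd5 took 7.80%, 5.10% and 7.34% before the peak and 8.36%, 8.35% and 8.29% with it, so all with-peak shares were higher and close together. Shares sum to a whole, so a lower share of mt-Cytb makes other shares larger. On the CPM scale mt-Nd4 and mt-Nd5 overlapped between groups, and 15.5% of all genes tested did not overlap.

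A count ratio of mt-Nd5 to mt-Cytb, also chosen after the values were seen, restates this contrast from the same counts. There were 0.392, 0.248 and 0.367 mt-Nd5 counts per mt-Cytb count before the peak and 0.506, 0.451 and 0.481 with it, without overlap. mt-Co1 took 42.1% ± 0.886 and 43.4% ± 3.21 (SD, n = 3), and mt-Nd1 13.7% ± 0.631 and 13.6% ± 1.53, both with overlapping groups. mt-Nd3, at 34 to 71 counts, also had all its with-peak shares above its before-peak shares, from 0.0215% to 0.0252% and from 0.0255% to 0.0375%.

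**Figure D3:**
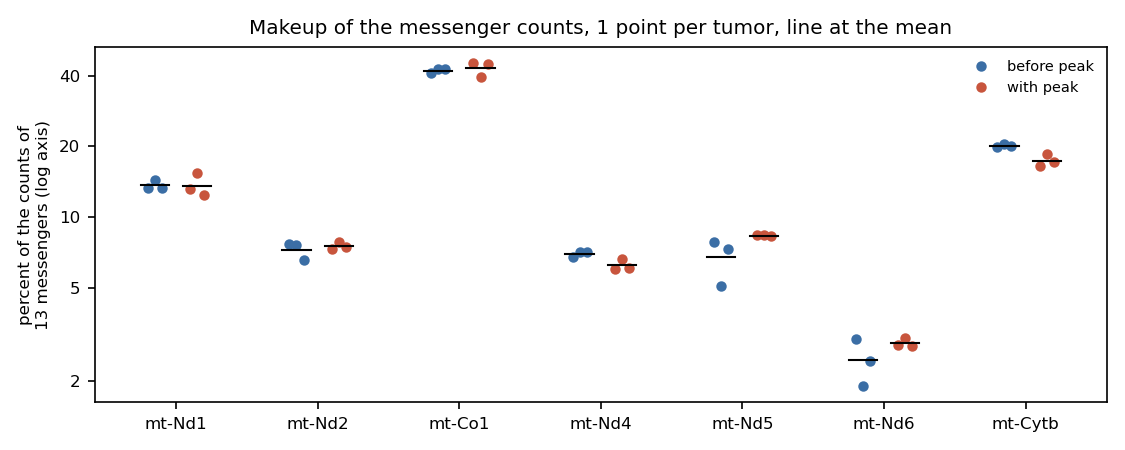
Share of each of the 7 messengers with the most counts in the summed counts of all 13 (y axis, percent, log axis), 1 point per tumor with a line at each mean. The mt-Cytb and mt-Nd4 shares are lower in all with-peak tumors and the mt-Nd5 share is higher, at 8.29% to 8.36%.

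The light strand of the genome encodes 1 messenger, mt-Nd6 (13552 to 14070), a complex I subunit that shares 14 bases with the end of mt-Nd5 on the other strand. It was at 422, 288 and 357 CPM before the peak and at 424, 452 and 321 CPM at the peak (log2 fold change 0.17, SE of 0.17, adjusted p = 0.794 by edgeR), with before-peak replicate 2 lowest. The log2 fold change was 0.033 without that tumor and 0.31 without before-peak replicate 1. The log2 ratio of light-strand to heavy-strand messenger counts was -5.34 ± 0.34 and -5.07 ± 0.06 in the groups (SD over 3 tumors each, two-sided exact permutation p = 0.3, adjusted 0.36). The difference of 0.28 was 0.10 without before-peak replicate 2 and 0.45 without before-peak replicate 1. mt-Nd6 counts per mt-Nd5 count overlapped, from 0.331 to 0.386 before the peak and from 0.338 to 0.365 with it. Since strand was not kept, any heavy-strand RNA across mt-Nd6 would add to its counts.

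Of the 22 annotated tRNA genes 8 were in the table, 6 of the 8 on the light strand and 2 of the 14 on the heavy strand. Their sums over the 6 libraries ran from 21 counts (mt-Ta) to 1498 counts (mt-Tp), and 5 genes passed the filter, all on the light strand. Mature tRNAs have no adenine tail. The 5 genes are printed 5′ to 3′ in the sense of the tRNA, with bases that also belong to a neighbouring gene in capitals, since a read over those bases belongs to more than 1 gene.
mt-Tq: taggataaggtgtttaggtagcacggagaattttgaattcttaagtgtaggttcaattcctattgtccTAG
mt-Ty: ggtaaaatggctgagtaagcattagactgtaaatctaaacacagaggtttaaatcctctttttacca
mt-Ts1: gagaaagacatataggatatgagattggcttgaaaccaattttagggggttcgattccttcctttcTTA
mt-Te: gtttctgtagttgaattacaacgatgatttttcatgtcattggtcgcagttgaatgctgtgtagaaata
mt-Tp: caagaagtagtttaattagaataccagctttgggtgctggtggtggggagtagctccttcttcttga
The last 3 bases of mt-Ts1 (6870 to 6938) are also the end of mt-Co1 on the other strand, and those of mt-Tq (3772 to 3842) belong to mt-Ti. Any heavy-strand RNA across these 5 genes would add to their counts, because strand was not kept.

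mt-Tp (15356 to 15422), the proline tRNA, had 183, 213 and 285 counts before the peak and 315, 315 and 187 with it. Its level was 18.4 ± 4.76 and 21.6 ± 3.29 CPM (SD, n = 3, log2 fold change 0.24, SE of 0.22, adjusted p = 0.770 by edgeR), which was 0.10 without before-peak replicate 1 and 0.46 without before-peak replicate 3. mt-Ts1, a serine tRNA, had 61, 114 and 94 counts and then 72, 138 and 49 (-0.07, SE 0.38). mt-Ty, the tyrosine tRNA, had 35, 41 and 49 and then 57, 42 and 33 (0.06, SE 0.33). The groups overlapped in each on the CPM scale.

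mt-Tq, the glutamine tRNA, had 80, 20 and 23 counts before the peak and 62, 81 and 47 with it. mt-Te (14071 to 14139), the glutamate tRNA, whose 3′ end adjoins mt-Nd6 on the same strand, had 42, 7 and 9 and then 39, 32 and 11. In both, before-peak replicate 1 was the highest of the 6 tumors on the CPM scale. Their log2 fold changes were 0.62 (SE 0.53) and 0.44 (SE 0.71). Without before-peak replicate 1 they were 1.54 and 1.69, with edgeR adjusted p of 0.473 and 0.603. mt-Ta, mt-Tw and mt-Tt had 0 to 14 counts per library, too few for a test. As a class, tRNA counts per 100 messenger counts were 0.234, 0.206 and 0.267 before the peak and 0.262, 0.333 and 0.296 with it. The log2 ratio differed by 0.34 (exact permutation p = 0.2, adjusted 0.36), with with-peak replicate 1 inside the before-peak range. Taken as a mean of log2 counts over genes, which weights each tRNA gene equally, the difference was 0.72 (exact permutation p = 0.1). That mean includes mt-Ta, mt-Tw and mt-Tt, so it rests in part on genes with 0 to 14 counts per library.

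Per kilobase of gene the messengers spanned a wide range. mt-Co1 led with 3915 ± 364 CPM per kilobase (SD over all 6 tumors), then mt-Cytb with 2335 ± 357 and mt-Nd1 with 2032 ± 315, whose ranges over tumors overlapped each other. mt-Nd2 followed with 1009 ± 113, and mt-Nd6, mt-Nd4 and mt-Nd5 with 727 ± 125, 681 ± 99.9 and 583 ± 97.5, each overlapping its neighbour in the order. The rRNA genes came after them, mt-Rnr1 with 230 ± 67.0 and mt-Rnr2 with 175 ± 60.2. Far below stood mt-Co3, mt-Co2 and mt-Atp6, at 38.1 ± 12.1, 35.1 ± 8.61 and 30.4 ± 9.15. mt-Nd3, at no less than 9.10 CPM per kilobase in any tumor, mt-Atp8, at 7.51 ± 3.19, and mt-Nd4l, at 5.84 ± 2.96, were lowest.

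**Figure D4:**
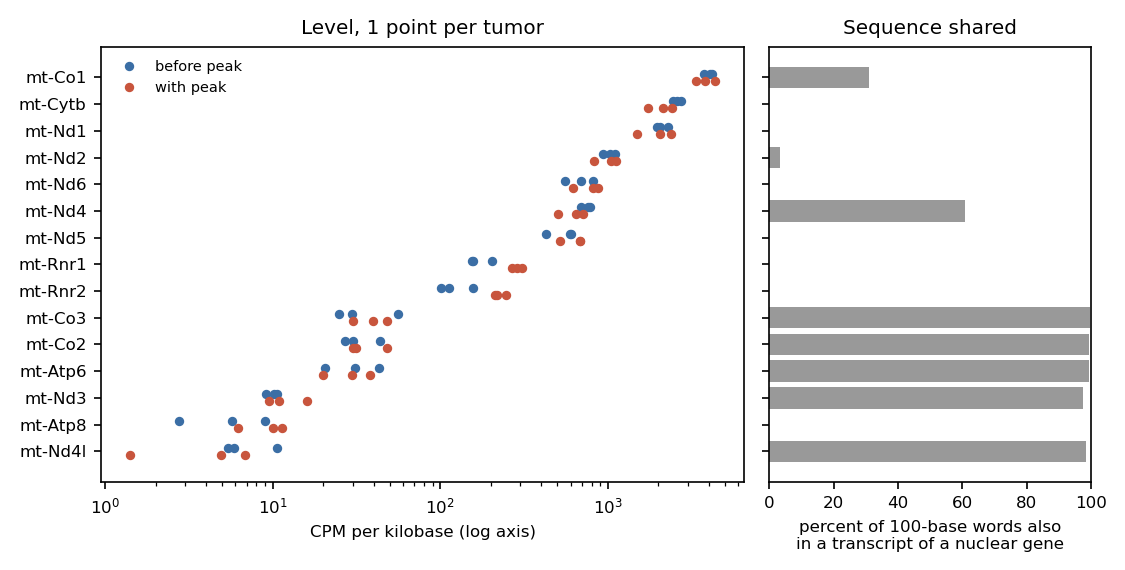
Left, CPM per kilobase of each messenger and rRNA gene (log axis), 1 point per tumor; right, percent of the gene's 100-base words that also occur in an annotated transcript of a nuclear gene. The genes from mt-Co3 down to mt-Nd4l reach at most 55.9 CPM per kilobase, and all of these but mt-Atp8 share 97.6% to 99.9% of their words with a nuclear gene.

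The 6 lowest messengers lie side by side on chromosome M, and the nuclear genome holds a copy of that stretch. On chromosome 1 of GRCm38, 7 genes annotated as unprocessed pseudogenes, from Gm28439 (24611535 to 24612410) to Gm29216 (24615706 to 24616197), follow the order of mt-Nd4 back to mt-Co1. Aligned to the mitochondrial transcripts, mt-Co2 matched Gm28661 at 681 of 681 bases, mt-Atp6 matched Gm10925 at 678 of 678, and mt-Co3 matched Gm28437 at 783 of 783. mt-Nd3 and Gm28438 were identical over 342 bases, mt-Nd4l and Gm10222 over 294, and mt-Nd4 and Gm28439 over 876, which is 63.6% of mt-Nd4. For mt-Co1 the match to Gm29216 covered 31.3% of the gene, with 1 mismatch in 483 bases (A1066T, counted from the first base of mt-Co1, the mitochondrial base first).

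The edge of the match in mt-Co1, and the identity over mt-Co2, can be read from the sequences (GENCODE M21 transcripts, with the copies on the minus strand of chromosome 1). The start of Gm29216 is set against bases 1054 to 1113 of mt-Co1, and the start of Gm28661 against bases 1 to 60 of mt-Co2, with bases that differ in capitals.
mt-Co1: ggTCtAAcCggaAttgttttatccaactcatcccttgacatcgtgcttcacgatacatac
Gm29216: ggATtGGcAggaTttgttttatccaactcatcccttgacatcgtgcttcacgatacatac
mt-Co2: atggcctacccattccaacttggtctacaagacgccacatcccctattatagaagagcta
Gm28661: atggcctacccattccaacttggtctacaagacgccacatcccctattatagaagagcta
In the first pair 6 of the 60 bases differ, all near the start, and in the second pair 0 of 60.

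Of all 100-base words of a gene, 99.5% for mt-Co2 and mt-Atp6, 99.9% for mt-Co3, 98.5% for mt-Nd4l and 97.6% for mt-Nd3 also occurred in the transcript of a nuclear gene. The share was 60.8% for mt-Nd4, 30.8% for mt-Co1, 3.19% for mt-Nd2 and 0% for mt-Nd1, mt-Nd5, mt-Nd6, mt-Cytb and both rRNAs. mt-Atp8 also had 0%, but no gene is annotated over its part of the copy. The 233 bases between Gm10925 and Gm28661 equal the distance between the matching ends of mt-Atp6 and mt-Co2, where mt-Atp8 lies. How the authors' counting treated reads that fit both places is not given in the sources used here, so the low levels of these 6 genes cannot be read as low expression. The levels per kilobase of mt-Nd4 and mt-Co1, which share part of their words, are uncertain for the same reason.

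Copies of mt-Co2, mt-Atp6 and mt-Co3 had more counts than these genes in every library. Gm29216 and Gm28439, which match only part of mt-Co1 and mt-Nd4, had 230 to 500 and 92 to 195 counts, far fewer than those genes. With the before-peak tumors first, mt-Co2 had 229, 384, 247, 308, 418 and 213 counts, and Gm28661 had 320, 661, 363, 365, 694 and 321. mt-Atp6 had 175, 373, 254, 193, 329 and 210 counts, and Gm10925 had 399, 865, 442, 443, 791 and 502. mt-Co3 had 242, 560, 281, 337, 484 and 319 counts, and Gm28437 had 332, 645, 350, 344, 619 and 404. In all of these the libraries of replicate 2 were the highest of both groups.

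Gm13341, a pseudogene on chromosome 2 (22587291 to 22587962) that holds words of mt-Co2, had 176, 462, 200, 260, 378 and 241 counts, high in the same libraries. Near it, Gm13340 (22588103 to 22589647) holds words of mt-Co1. It had 382, 1009, 439, 499, 967 and 649 counts, more than Gm29216 in every library. Gm13339, also on chromosome 2, holds words of mt-Nd2 and had 21 to 74 counts. mt-Nd3 had 44, 47, 38, 54, 71 and 34 counts against 165, 125, 88, 167, 148 and 95 for Gm28438, which on the CPM scale was highest in before-peak replicate 1. The log2 fold change was 0.29 for mt-Nd3 (SE 0.33) and -0.74 for mt-Nd4l (SE 0.60), with overlapping groups. With 1 library left out they ran from 0.034 (without with-peak replicate 2) to 0.44 (without with-peak replicate 3), and from -1.23 (without with-peak replicate 2) to -0.30 (without with-peak replicate 1). With the copy counts added they were 0.15 and -0.22. mt-Atp8 had 7 to 26 counts per library, and its log2 fold change ran from 0.31 without before-peak replicate 1 to 1.09 without before-peak replicate 3. Over the 7 copies there were 204 ± 16.3 counts per 100 counts of the 6 messengers in before-peak tumors and 205 ± 16.4 in with-peak tumors (SD, n = 3). The 7 copies include those of mt-Co1 and mt-Nd4, which are not among the 6 messengers, and mt-Atp8 has no annotated copy. The value is thus not a ratio of matched genes. When the counts of each copy were added to its mitochondrial gene, an alternative chosen after seeing the data, 0 members passed the edgeR test. The log2 ratio of rRNA to messenger counts differed by 0.94 also when only the 7 messengers outside that stretch of low genes were used. The 6 left out held few messenger counts, such as 1419 of 194121 in before-peak replicate 2, so this could hardly move the ratio.

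Nuclear genes that make, process and use mitochondrial RNA were looked up in lists of genes. The edgeR test and DESeq2 each called 0 genes in each of the 12 lists of nuclear genes for mitochondrial functions given below, and limma-voom called 0 of all genes tested. The share of all genes at an unadjusted p under 0.05 by edgeR was 6.12% higher and 3.38% lower. Of the 11 transcription genes, 5 had positive and 6 negative log2 fold changes (median -0.04), and 0 reached an unadjusted p under 0.05. Tfam, which packages mitochondrial DNA and starts transcription, was at 55.1, 47.6 and 48.5 CPM before the peak and at 44.7, 43.9 and 44.6 with it (log2 fold change -0.18, SE of 0.12, adjusted p = 0.673 by edgeR). Tfb2m, its partner at the promoter, was at 29.1, 23.0 and 22.2 CPM and at 20.1, 20.5 and 21.6 CPM (-0.26, SE 0.16). All with-peak values of both genes were below all before-peak values, as for 7.38% of all genes tested. Polrmt, the RNA polymerase itself, was at 0.12 on the log2 scale (SE 0.19) and Mterf3, a transcription regulator, at 0.21 (SE 0.19).

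Of 21 tested genes of RNA processing and turnover, 8 were positive and 13 negative (median -0.05), with 0 at an unadjusted p under 0.05. Lrpprc and Slirp, which form the complex that stabilises mitochondrial messengers, had log2 fold changes of -0.05 (SE 0.13) and 0.20 (SE 0.11), and Ptcd2 one of 0.32 (SE 0.17). Of 25 genes of rRNA maturation and ribosome assembly, 10 were positive and 15 negative (median -0.07). Here 2 reached an unadjusted p under 0.05, both lower, as did 3.38% of all genes. They were Dhx30, a helicase of ribosome assembly, at 93.7 ± 9.22 and 72.7 ± 1.09 CPM (SD, n = 3, log2 fold change -0.37, SE of 0.11, adjusted p = 0.386 by edgeR), and Trmt61b, an RNA methyltransferase (-0.95, SE 0.32). Of 35 genes of tRNA modification and charging, 10 were positive and 25 negative (median -0.15), with 1 (Fars2, 0.44, SE 0.17) higher and 2 (Aars2, -0.50, SE 0.19, and Qtrt2, -0.37, SE 0.15) lower at that level. Aars2 and Fars2 charge the alanine and phenylalanine tRNAs of the organelle.

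Proteins of the mitochondrial ribosome had 57 positive and 20 negative values among 77 tested genes (median 0.10), where 47.7% of all genes tested were positive. At an unadjusted p under 0.05 by edgeR there were 6 higher and 0 lower, where 6.12% of all genes tested were higher and 3.38% lower. Among the 6 were Mrpl58, Mrps16 and Mrps36 at log2 fold changes of 0.43, 0.42 and 0.54. Scaled by library size alone, which moved the median of all genes from -0.02 to -0.07, the split was 45 and 32. Without with-peak replicate 2 it was 48 and 29, with a median of 0.05. Of 13 translation factors 7 were positive, with a median of 0.05 that turned to -0.01 by library size alone, with Gfm2, a ribosome recycling factor, at 0.47 (SE 0.12). Of 16 genes of mitochondrial DNA replication 9 were positive, with a median of 0.01 that turned to -0.05 by library size alone (3 positive) and -0.0013 by upper quartile scaling, with Polg, the DNA polymerase, at -0.24 (SE 0.12) and Dna2, a nuclease and helicase, at -0.44 (SE 0.23). Of 8 tested regulators of mitochondrial biogenesis 7 were negative (median -0.10), with Gabpa at -0.19 (SE 0.11) and Myc at -0.23 (SE 0.12). Ppargc1a, a coactivator of biogenesis, was below the filter.

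The nuclear partners of the mitochondrially encoded subunits had mostly positive values. For complex I, 35 of 37 tested genes were positive (median 0.19). Of these 37 genes, 7 were higher and 0 lower at an unadjusted p under 0.05 by edgeR, beside 6.12% and 3.38% of all genes tested. Ndufb11 and Ndufb8, accessory subunits, had log2 fold changes of 0.32 (SE 0.10) and 0.48 (SE 0.16). Complex III had 8 of 9 positive (median 0.18) with Uqcrh at 0.27 (SE 0.12), complex IV 10 of 11 (median 0.16) with Cox5b at 0.32 (SE 0.12), and complex V 16 of 16 (median 0.16) with Atp5l at 0.38 (SE 0.12). Values depend on with-peak replicate 2, without which complex IV had 6 of 11 positive with a median of 0.02, complex III 7 of 9 with a median of 0.07, complex I 27 of 37 with a median of 0.11 and complex V 13 of 16 with a median of 0.12. The messengers of chromosome M, with 6 of 13 positive, were given above, and the difference between these groups of genes was not tested. Tested genes lie across Mterf3, Slirp, Dhx30, Trmt61b, Mrpl58, Fars2, Qtrt2, Gfm2, Polg, Ndufb11, Uqcrh, Atp5l, Gabpa and Malat1 on the other strand, and in libraries without strand their counts are uncertain.

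**Figure D5:**
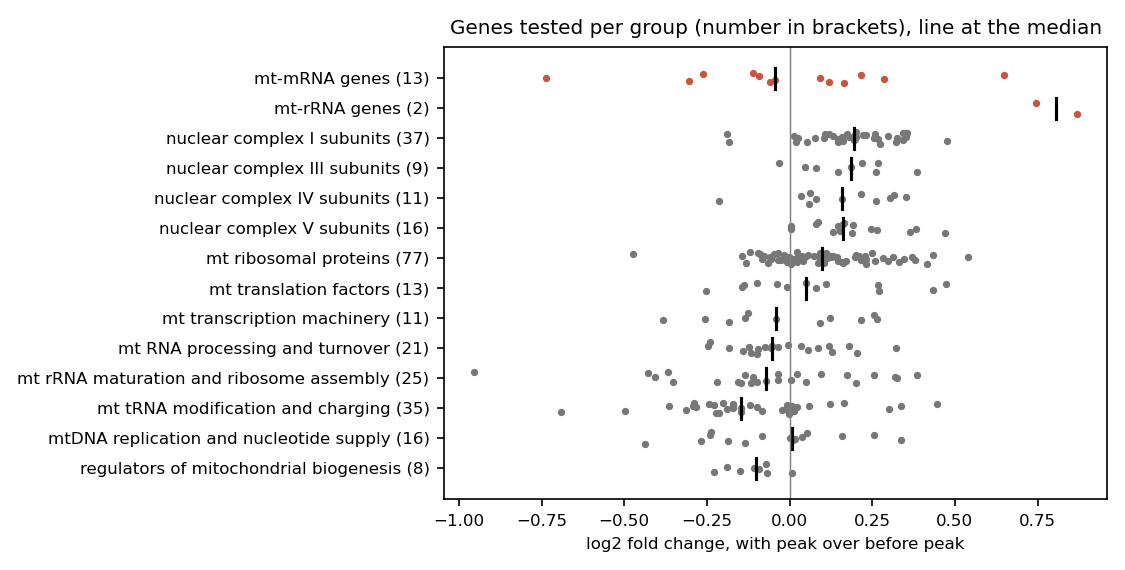
Log2 fold change (x axis) of every tested gene in the mitochondrial messengers and rRNAs and in 12 lists of nuclear genes, with a line at each median. Both rRNA genes lie to the right of all nuclear genes shown, and the nuclear subunits of complexes I, III, IV and V have medians of 0.16 to 0.19.

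Nuclear RNAs that oligo(dT) should leave behind were looked up as well. Of 22 nuclear RNAs listed as lacking a poly(A) tail and present in the table, 9 were tested, 4 positive and 5 negative (median -0.47). Some histone genes also make polyadenylated RNA. The summed level of the 22 genes was 73.1, 81.2 and 75.0 CPM before the peak and 77.8, 104.0 and 104.3 CPM with it. Hist1h1c alone held 42.1, 43.6 and 42.2 CPM and then 49.6, 57.0 and 64.4 CPM of it, so the sum mostly follows a single gene. Hist1h1c, a linker histone, was higher in every with-peak tumor, as were 8.13% of all genes tested (log2 fold change 0.42, SE of 0.13, adjusted p = 0.387 by edgeR). Rn7sk, a small nuclear RNA, was at 0.70 (SE 0.42), or 0.32 without with-peak replicate 1. Of 6 long RNAs kept in the nucleus 2 were positive and 4 negative (median -0.09), which turned to 4 and 2 (median 0.05) without with-peak replicate 2. Among them Malat1 was at -0.17 (SE 0.26) and Meg3 at 0.83 (SE of 0.24, adjusted p = 0.384 by edgeR), or 0.47 without with-peak replicate 2.

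Among markers of other cell types, the summed levels of 2 lists separated the groups as the rRNA counts did, those of macrophages and of erythroid cells and platelets. Macrophage markers had 14 of 14 positive values and summed to 2859 to 4050 CPM before the peak and 5084 to 6998 CPM with it. None of them was at 0 in any tumor. Erythroid and platelet markers summed to 164 to 309 and 338 to 2214 CPM. Skeletal muscle markers, of a tissue rich in mitochondria, had 25 of 25 positive values, but their sum was 491, 214 and 151 CPM before the peak and 415, 2060 and 1975 CPM with it, so with-peak replicate 1 lay inside the before-peak range. That tumor had 293 CPM of mt-Rnr1 and 334 CPM of mt-Rnr2. T and B cell markers, 1 positive and 9 negative, summed to 497 CPM in before-peak replicate 3, the before-peak tumor with the highest rRNA level, and to 25.4 to 109 CPM in the other 5 tumors. Neutrophil markers had 7 positive and 1 negative value among 8 tested genes (median 0.54). Their sums overlapped, at 409 to 925 CPM before the peak and 530 to 758 CPM with it. Adipocyte markers overlapped between groups, and Ucp1 and Cidea, which mark brown fat, were at 0 in part of the tumors. The part of these cell types in the rRNA counts was not tested.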

How the data were processed

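Libraries from oligo(dT)-purified RNA of 6 snap-frozen tumors were paired-end and kept no strand information, per the labels' protocols. The authors deposited raw, unnormalized counts for each gene, made with FastQC, STAR and mm10, per the submitters' processing notes. Not given in the sources used here are the read counter, its annotation, how reads with several matches were handled, and any filter.

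Symbols and positions came from GENCODE M21 (GRCm38), which matched 23479 of 23508 genes. Counts were fitted with edgeR 4.0.16 (R 4.3.3): TMM scaling, filterByExpr (minimum count 10, minimum total 15), which left 16755 genes, and a robust two-sided quasi-likelihood test between the groups, without covariates. P-values were adjusted by Benjamini-Hochberg over all genes, with a threshold of 0.05. The standard error (SE) was derived from the F statistic as |log2 fold change|/√F. Alternatives were other scalings and filters, DESeq2 1.42.0, limma-voom (limma 3.58.1), a replicate block and leaving out libraries.

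Class shares and ratios were compared by exact permutation over samples (scipy 1.17.1). Sequences were read from GENCODE M21 transcripts and aligned with Biopython 1.88; words of 100 bases were matched on both strands to all transcripts of genes outside chromosome M. The text names all mitochondrial members, up to 3 genes with the smallest p-values per nuclear list, and 7 genes fixed by name; Gm10222 and the genes of chromosome 2 were added after their values were seen. Members and lists were chosen with earlier results of these data known. No library was a duplicate of another in its group (chi-square over degrees of freedom 17.1 to 28.9). Whether each tumor is from its own animal is not in the labels, and p-values then measure only the spread between samples, which may be technical.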

Additional observations from a re-analysis of the deposited data

How the results depend on the processing

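The exact tests of class shares and ratios kept their direction under all alternatives run. The log2 ratio of rRNA to messenger counts differed by 0.81 to 1.09 with 1 library left out, 0.84 as a mean over genes and 1.00 in 2 against 2 tumors without replicate 3 of both groups. The labels state no pairing; deviations of same-numbered tumors correlated at -0.06, -0.10 and 0.03, so the numbers show no pairing. With the replicate block the ratio again differed by 0.94 (exact sign-flip p = 0.25, the smallest 3 pairs can give), 1 gene was called over all genes and 0 members. Over all genes edgeR called 0, against 266 by DESeq2, 29 with no filter on low counts, 35 at an adjusted p under 0.1, 4 in 2 against 2 tumors and 0 to 17 with 1 library left out. Of members, DESeq2 called 2 and leaving out 1 library 0 to 1 (mt-Rnr2 without before-peak replicate 3). The cause was not tested.

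Over 17 alternatives the log2 fold change of mt-Rnr1 ran from 0.68 to 0.93 (adjusted p 4.56e-04 to 0.379) and that of mt-Rnr2 from 0.74 to 1.10 (5.48e-04 to 0.428). Signs turned only for small values. With 1 library left out the log2 fold change ran from -0.25 to 0.080 for mt-Nd1, -0.14 to 0.079 for mt-Nd2, -0.15 to 0.032 for mt-Co1, -0.058 to 0.22 for mt-Ty, -0.56 to 0.14 for mt-Ts1, -0.12 to 0.36 for mt-Co2, -0.35 to 0.17 for mt-Atp6, -0.13 to 0.52 for mt-Co3, -0.052 to 0.29 for Polrmt, -0.11 to 0.031 for Lrpprc and -0.33 to 0.072 for Malat1. In 2 against 2 tumors mt-Nd1, mt-Nd2, mt-Co1, mt-Ts1 and mt-Co3 were at 0.059, 0.013, 0.043, 0.20 and -0.040. By library size alone mt-Ty was at -0.0021, and with the nuclear copy added mt-Atp6 was at 0.0018. Signs held but values moved by over 1.5 times for mt-Tq (0.28 to 1.54), mt-Te (0.036 to 1.69), Mterf3 (0.12 to 0.33), Tfb2m (-0.33 to -0.12) and Tfam (-0.22 to -0.11). Depth limits genes with few counts, such as mt-Te and mt-Atp8. The additions of nuclear copy counts were chosen after seeing the data.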
